A study of Homo sapiens with 10 samples.

Results

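Mitochondrial ribosomal protein genes, the nuclear genes named MRPL or MRPS followed by a number, were followed in MEG-01 cells given a microRNA. Members were taken by gene symbol, after each array probe's RefSeq accession was matched to a current symbol. The RefSeq table held 77 protein-coding members, of which 76 had at least 1 probe on the array (88 probes, 160 spots) and only MRPL42 had no matched accession. Pseudogenes and 3 non-coding symbols (MRPL20-AS1, MRPL23-AS1, MRPL42P5) were left out. All 76 members passed the filter on dim probes and stand among 17379 genes tested. Of those 17379, 11995 carried a symbol, and the others were features without a matched accession, counted under the name given on the array. Shares and medians over all genes below include both kinds, while the members are all matched protein-coding genes. Because 40 of the members have at least 1 of the 106 named MRP pseudogenes in RefSeq, signal from such near-identical transcripts could not be separated from that of the parent gene.

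MEG-01 is an established human megakaryoblastic leukemia line, used as a model of the megakaryocyte, the cell that sheds platelets. The study put a synthetic precursor of miR-1225-3p into these cells by nucleofection, a form of electroporation, at 200 nM, and compared them with cells that received the same dose of a scrambled control precursor of random sequence. RNA was collected after 24 h, and each group comprised 5 arrays described as biological replicates from independent experiments carried out at the same time. One label field describes the scrambled cells as not treated; their titles and the study's methods name the control precursor, which was taken as correct. All samples come from 1 cell line, and no cells without nucleofection were among the arrays. The mature microRNA is given here because it is the only agent that differs between the groups, with its seed (bases 2 to 8) in capitals, from RefSeq (GRCh38.p14, chr16:2090195-2090216, minus strand).
hsa-miR-1225-3p: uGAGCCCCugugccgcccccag

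The mitochondrial ribosome translates the few proteins still encoded by mitochondrial DNA, all of them core subunits of the oxidative phosphorylation complexes. Its RNA components are made inside the organelle, but every one of its proteins is encoded in the nucleus, made in the cytosol and imported. Some of these proteins descend from those of the bacterial ribosome (bacterial-type), while others were added during the evolution of mitochondria (mitochondria-specific), and both kinds occur in the large subunit, which joins amino acids, and in the small subunit, which reads the messenger RNA.

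The values below are log2 signals after cyclic loess normalization, and a fold change is the mean of the miR-1225-3p arrays minus that of the scrambled arrays on the log2 scale, with its standard error (SE) from limma. A gene was called when its adjusted p, over all 17379 genes, was under 0.05. Member spots were well above background at between 96.9% and 99.4% per array, against 41.95% to 61.18% of all spots, and none was saturated. Of the 76 members, 73 were well above background on all 10 arrays, the exceptions being MRPL1, MRPL38 and MRPS27. Their probes differed in how steady they were in each group: the SD between arrays was larger among miR-1225-3p than among scrambled arrays for 58 of 76 members, with a median of 0.245 against 0.126.

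One array stood apart from its label. The first principal component of all genes held 69.6% of the variance and placed miR-1225-3p replicates 1 to 4 between -133.4 and -53, the scrambled arrays between 48.7 and 79.9, and miR-1225-3p replicate 5 at 56.7, among the scrambled arrays. The array was kept, and results are also given without it. Both groups were spread over the 2 slides: slide 1 carried 2 arrays of miR-1225-3p and 3 of scrambled, slide 2 carried 3 and 2. Replicate 5 of miR-1225-3p was on slide 2. Megakaryocyte markers were present, with 9 of 13 tested and 7 of these well above background on all 10 arrays, among them ITGA2B (the platelet integrin CD41), GATA1 and NFE2. Their mean log2 level ranged from 7.61 to 8.32 on the miR-1225-3p arrays and from 8.42 to 8.52 on the scrambled arrays, and 3 of the 9 fell (ITGA2B, NFE2, FLI1), beside the 18.1% of all genes that were called lower, while none rose. With 75th percentile scaling 1 of them rose and 1 fell, beside 26.3% and 14.9% of all genes. Without miR-1225-3p replicate 5, 1 of them rose and 6 fell, beside 26.4% and 29% of all genes. Of erythroid markers 10 of 12 were tested (10.67 to 10.76 against 10.58 to 11.23), of lymphoid markers 5 of 9 (7.97 to 8.4 against 8.18 to 8.89), of monocyte and granulocyte markers 5 of 7 (6.85 to 7.1 against 6.62 to 7.24), and of fibroblast and epithelial markers 5 of 9 (8.26 to 8.92 against 8.18 to 8.5). Of these, GYPB, CD3E, MPO and EPCAM rose and HBE1 and NKG7 fell, beside 17% and 18.1% of all genes called higher and lower. CD3E was well above background on only 3 miR-1225-3p arrays and 1 scrambled array. It thus passed the filter on dim probes only through the group where it was high. The part that these differences play in the values below was not tested, and fewer cells of a kind cannot be told apart from less RNA per cell.

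Mitoribosomal protein genes moved in both directions, with more rises than falls. Of the 76 members, 19 rose and 8 fell, 27 (35.5%) in all, beside 35% of all genes called, 17% of them higher and 18.1% lower. As shares of the members, 25% rose and 10.5% fell. The median log2 fold change of the members was 0.19 (25th to 75th percentile -0.14 to 0.45), with 49 above 0, while the median of all genes tested was -0.06. The share called in all was thus near the background, and the split between rises and falls was not tested against it. The call of a member held under between 8 (MRPS2) and 23 (MRPL47 among others) of 26 alternative settings.

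The 5 arrays of one group lay apart from all 5 of the other for 13 members that were higher and 1 that was lower (MRPL10), beside 7.98% and 4.74% of all genes. For such a gene the exact permutation test (two-sided) gives p = 0.00794, the smallest that 252 arrangements allow. Taken array by array, the median over members of the deviation from the scrambled mean was 0.25, 0.20, 0.18, 0.19 and 0.06 on miR-1225-3p replicates 1 to 5, and between -0.02 and 0.01 on the scrambled arrays. Replicate 5 was the lowest of its group here as well.

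Without miR-1225-3p replicate 5, 31 members rose and 12 fell, beside 26.4% and 29% of all genes, and the median was 0.21. Leaving out any of several other arrays lowered the number of mitoribosomal protein genes called from 27, and the share of all genes with it. The count was 16, 9, 10 and 15 without miR-1225-3p replicates 1, 2, 3 and 4 (beside 24.4%, 12.3%, 13% and 20.3% of all genes), and 15, 13 and 13 without scrambled replicates 2, 3 and 4 (19.3%, 19.5% and 17.7%). The direction of the median did not depend on the array left out, its range being 0.15 to 0.21. On slide 1 alone the median was 0.23 and on slide 2 alone 0.14. However, 13 members were called on slide 1 (25.9% of all genes) and 0 on slide 2 (0% of all genes). On slide 2 no member had an unadjusted p under 0.05 by limma, against 1220 of all genes. Slide 2 held miR-1225-3p replicate 5, so a difference between the slides cannot be told apart from that array.

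The scaling of the arrays changed the split. With each array scaled to its 75th percentile of signal in place of cyclic loess, 47 members rose and 2 fell, beside 26.3% and 14.9% of all genes, and the median of members was 0.65 against 0.16 for all genes. With quantile normalization the medians were 0.28 and 0.08, and with no normalization 0.23 and -0.26. The median of the members thus stood above that of all genes on each of these scales, while the directions of single members with small changes did not hold on all of them.

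**Figure D1:**
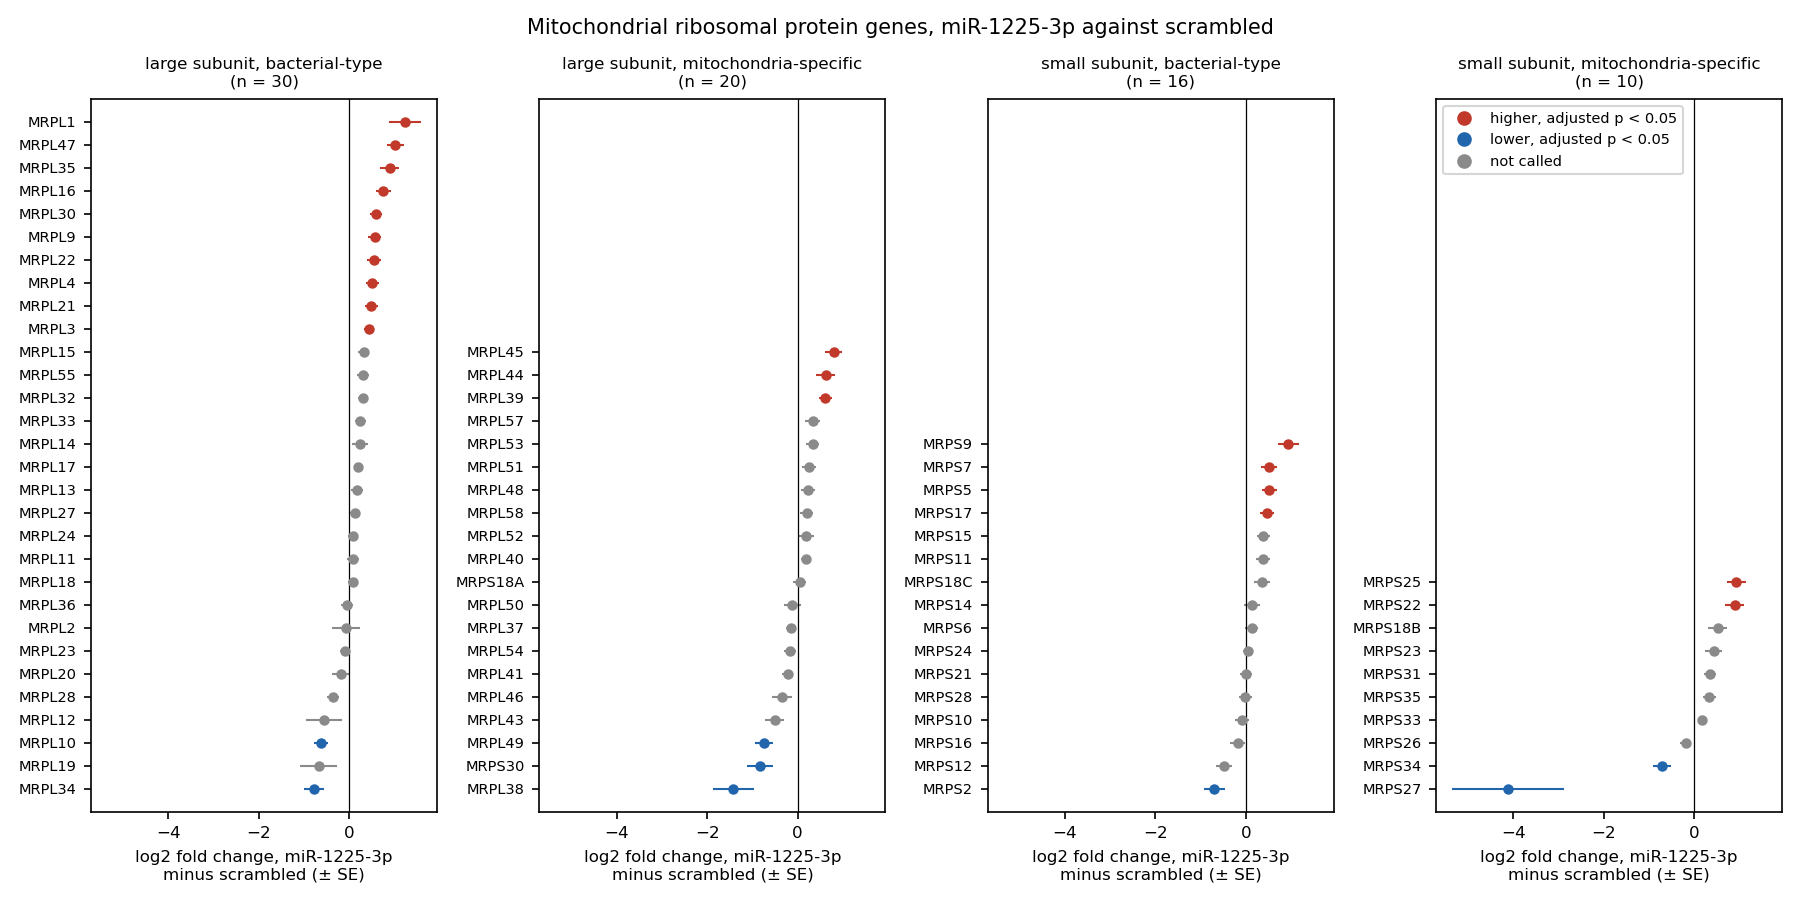
Log2 fold change of each of the 76 mitoribosomal protein genes (x axis, miR-1225-3p minus scrambled, n = 5 arrays a group, bars ± SE from limma), in 4 panels by structural class and ordered by value. Red points are the 19 genes that rose and blue points the 8 that fell, and MRPS27 at -4.12 lies far from all others.

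Among bacterial-type proteins of the large subunit, 10 of 30 rose (33.3%) and 2 fell (6.67%), with a median of 0.22. Of all genes, 17% were called higher and 18.1% lower. MRPL47 (uL29 in the unified nomenclature), which sits on the solvent side near the exit of the peptide tunnel, had the largest rise among genes measured well above background on every array. Its log2 signals were 10.96, 11.07, 11.29, 11.21 and 11.19 on the scrambled arrays and 12.37, 12.29, 12.41, 12.25 and 11.50 on the miR-1225-3p arrays. All 5 values of one group lay above all 5 of the other, and replicate 5 lay nearest to the scrambled arrays. The log2 fold change was 1.02 (SE 0.184, adjusted p = 0.0136), a 2.03-fold rise, and it was 1.18 without replicate 5.

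MRPL35 (bL35), a small core protein, measured 7.68, 7.84, 7.73, 7.65 and 7.62 on scrambled arrays and 8.54, 8.53, 8.95, 9.02 and 7.92 on miR-1225-3p arrays. The groups did not overlap, and the log2 fold change was 0.89 (SE 0.201, adjusted p = 0.0157). MRPL16 (uL16), which lies close to the peptidyl transferase centre, measured 12.31, 12.47, 12.71, 12.64 and 12.63 on scrambled arrays and 13.25, 13.30, 13.52, 13.63 and 12.84 on miR-1225-3p arrays. Again the groups did not overlap (log2 fold change 0.75, SE 0.168, adjusted p = 0.0155).

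MRPL3 (uL3), another core protein, in which mutations cause a cardiomyopathy, measured 10.29, 10.38, 10.42, 10.25 and 10.33 on scrambled arrays and 10.91, 10.88, 10.82, 10.67 and 10.60 on miR-1225-3p arrays. Its change was small but steady, with no overlap (log2 fold change 0.44, SE 0.114, adjusted p = 0.0205). Further rises of this class lay between 0.49 and 0.59 (MRPL30, MRPL9, MRPL4 and MRPL21), apart from MRPL22 at the tunnel exit and MRPL1, the protein of the mobile L1 stalk. MRPL1 had the largest log2 fold change of all members, 1.23 (SE 0.362, adjusted p = 0.0290), but was well above background on 3 of the 5 scrambled arrays. There it measured 5.02, 3.55, 5.29, 5.08 and 4.79, and on the miR-1225-3p arrays 6.50, 6.25, 6.37, 5.49 and 5.28, so that replicate 5 lay within the scrambled range. MRPL1 was named after its values were seen, as were MRPL4, MRPL9, MRPL21, MRPL30, MRPS17, MRPL19, MRPL37, MRPL38 and MRPS27.

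MRPL22 (uL22), of the protein ring around the exit of the peptide tunnel and measured on 10 spots an array, rose by a log2 fold change of 0.54 (SE 0.157, adjusted p = 0.0288), from 12.10, 12.16, 12.25, 12.29 and 12.35 to 12.82, 12.81, 12.80, 13.11 and 12.29. Replicate 5 lay within the scrambled range, the other 4 above it. For MRPL23 (uL23) and MRPL24 (uL24), of the same ring, the log2 fold changes were -0.10 (SE 0.116, adjusted p = 0.494) and 0.09 (SE 0.108, adjusted p = 0.494), and neither was called. With 75th percentile scaling the 3 values were 1.08, 0.36 and 0.44, with MRPL22 and MRPL24 called, and differences between these genes were not tested.

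At the flexible stalk that recruits translation factors, MRPL10 (uL10), its base, was the only member whose miR-1225-3p arrays all lay below the scrambled ones. It measured 11.42, 11.09, 11.20, 11.07 and 11.20 on scrambled and 10.52, 10.49, 10.38, 10.38 and 11.07 on miR-1225-3p arrays, a log2 fold change of -0.63 (SE 0.159, adjusted p = 0.0195). Replicate 5 stood by itself, at the lower edge of the scrambled arrays. MRPL12 (bL12), which forms the arm of the stalk and also binds the mitochondrial RNA polymerase, measured 10.13, 10.02, 10.23, 10.25 and 10.62 on scrambled arrays and 10.17, 9.26, 9.64, 8.43 and 10.92 on miR-1225-3p arrays.

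For MRPL12 the miR-1225-3p arrays thus spanned both sides of the scrambled range, and it was not called (log2 fold change -0.56, SE 0.393, adjusted p = 0.268). Without replicate 5 the value was -0.87 and was called. A second probe for it gave the same value, -0.56. MRPL11 (uL11), next to the stalk, had a log2 fold change of 0.08 (SE 0.128, adjusted p = 0.622). The remaining fall in the class was MRPL34 (bL34), from 12.84, 13.06, 13.12, 13.18 and 12.97 to 11.94, 11.94, 12.08, 12.14 and 13.16. Here replicate 5 lay within the scrambled range, and the log2 fold change was -0.78 (SE 0.231, adjusted p = 0.0290), or -1.01 without it. Under 75th percentile scaling the values for MRPL10 and MRPL34 were -0.17 and -0.23, and neither was called.

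**Figure D2:**
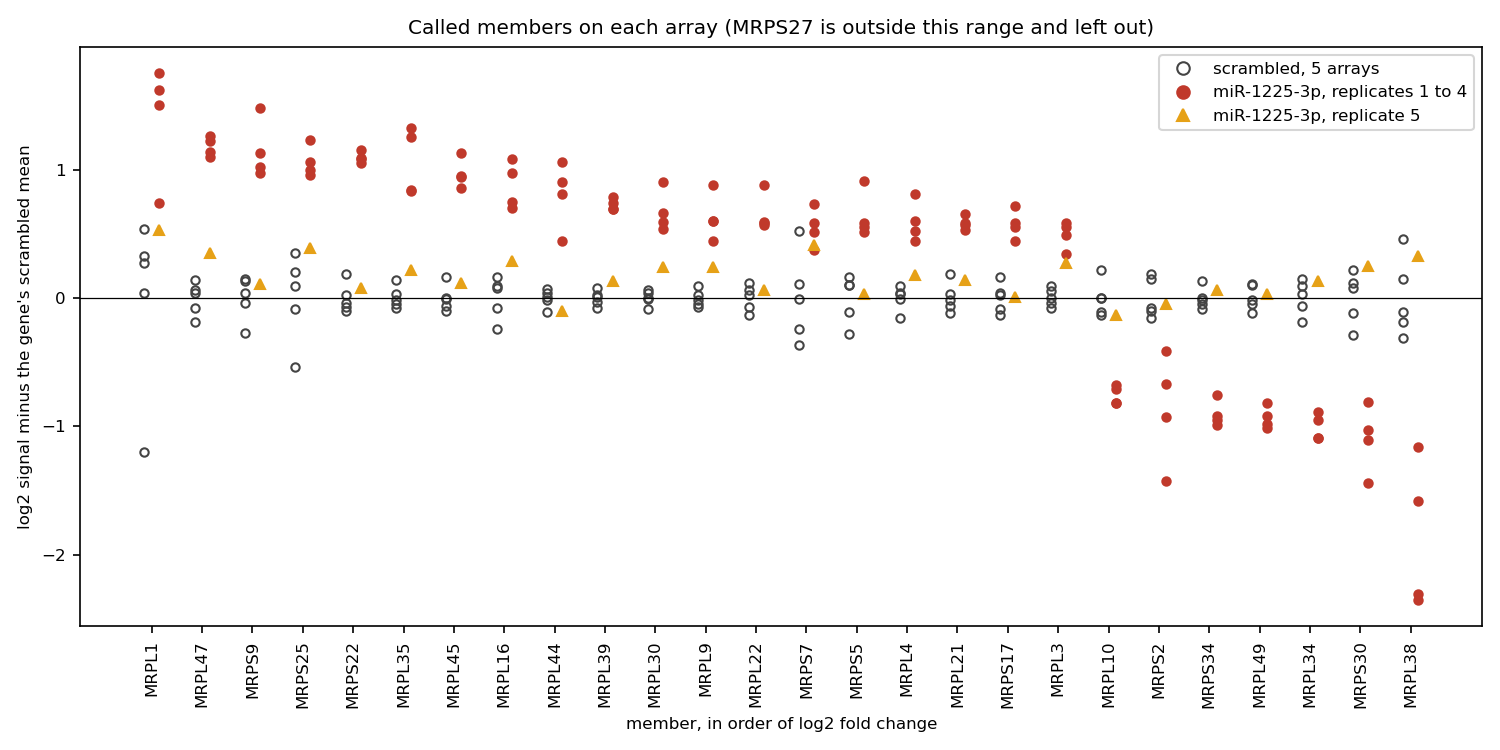
Log2 signal on each array minus the gene's mean over the scrambled arrays (y axis) for 26 of the 27 called members, ordered by log2 fold change (x axis). Open circles are the 5 scrambled arrays, filled circles miR-1225-3p replicates 1 to 4 and triangles replicate 5, which lies nearer to the scrambled mean than to the mean of replicates 1 to 4 for 25 of the 27 called members.

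Among mitochondria-specific proteins of the large subunit, 3 of 20 rose and 3 fell, 15% each, beside 17% and 18.1% of all genes. The median was 0.11, or -0.01 with no normalization. MRPL45, which lies at the tunnel exit and contacts the inner membrane where nascent proteins are inserted, rose by 0.80 (SE 0.187, adjusted p = 0.0165). Its log2 signals, each a mean of 10 spots, were 11.63, 11.53, 11.62, 11.57 and 11.79 on scrambled arrays and 12.49, 12.57, 12.58, 12.76 and 11.75 on miR-1225-3p arrays. Replicates 1 to 4 were closely grouped and apart from the scrambled arrays, among which replicate 5 lay.

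MRPL44, a protein with a ribonuclease III-like fold in which mutations cause a cardiomyopathy, measured 10.54, 10.51, 10.36, 10.48 and 10.45 on scrambled arrays and 10.91, 11.28, 11.37, 11.53 and 10.37 on miR-1225-3p arrays. It rose by 0.62 (SE 0.208, adjusted p = 0.0415), a call made under only 10 of 26 alternative settings. MRPL39, which resembles threonyl-tRNA synthetases, rose from between 10.78 and 10.94 to 11.65, 11.60, 11.55, 11.55 and 10.99 with no overlap (0.61, SE 0.146, adjusted p = 0.0173). Its call held under 23 of 26 settings.

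The 3 falls were MRPS30, MRPL49 and MRPL38. MRPS30, a large subunit protein in spite of its name, measured 9.53, 9.36, 9.73, 9.77 and 9.87 on scrambled arrays and 8.84, 8.62, 8.54, 8.21 and 9.90 on miR-1225-3p arrays, so that replicate 5 was above every scrambled array (log2 fold change -0.83, SE 0.283, adjusted p = 0.0443). MRPL49 went from 11, 10.88, 11.01, 10.85 and 10.78 to 10.08, 9.92, 9.98, 9.89 and 10.93 (-0.74, SE 0.202, adjusted p = 0.0236). With 75th percentile scaling MRPS30 had -0.51 and MRPL49 -0.30, and neither was called. MRPL38, of the central protuberance, was dimmer. It exceeded background clearly on 4 of the 5 arrays with miR-1225-3p, which gave 6.25, 5.83, 5.10, 5.06 and 7.74 against 7.22, 7.10, 7.56, 7.30 and 7.87 on scrambled arrays (-1.42, SE 0.460, adjusted p = 0.0388).

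Other large subunit proteins chosen by role gave no call after cyclic loess. MRPL58 (ICT1), a peptidyl-tRNA hydrolase built into the ribosome that can rescue stalled ribosomes, had a log2 fold change of 0.20 (SE 0.138, adjusted p = 0.259), and with 75th percentile scaling 0.68, which was called. MRPL41 had -0.22 (SE 0.125, adjusted p = 0.175), and its sign turned with 75th percentile scaling (0.33). For neither does the missing call show that the groups were alike.

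Of the bacterial-type proteins of the small subunit, 4 of 16 rose (25%) and 1 fell (6.25%), beside 17% and 18.1% of all genes. The median was 0.13. MRPS9 (uS9), whose tail reaches the peptidyl site, measured 9.97, 10.20, 10.39, 10.37 and 10.28 on scrambled arrays and 11.21, 11.26, 11.37, 11.72 and 10.35 on miR-1225-3p arrays. Replicates 1 to 4 lay well above all scrambled arrays and replicate 5 within their range (log2 fold change 0.94, SE 0.232, adjusted p = 0.0185). MRPS7 (uS7), a protein of the head of the subunit, rose by 0.52 (SE 0.177, adjusted p = 0.0457), from 7.88, 8.01, 8.36, 8.24 and 8.77 to 8.98, 8.62, 8.76, 8.83 and 8.66, with overlap between the groups.

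MRPS5 (uS5), of the messenger RNA entry channel, rose by 0.52 (SE 0.174, adjusted p = 0.0413) on its brightest probe, and MRPS17 (uS17) rose by 0.46 (SE 0.151, adjusted p = 0.0401). MRPS2 (uS2) was the fall of the class, from 14.08, 13.85, 13.77, 13.83 and 14.12 to 13.52, 13.26, 13.00, 12.50 and 13.88 (log2 fold change -0.70, SE 0.235, adjusted p = 0.0429). Replicate 5 lay within the scrambled range, and with 75th percentile scaling the value was -0.10 and not called. MRPS12 (uS12), of the decoding centre, had -0.48 (SE 0.179, adjusted p = 0.0590), which was -0.05 with 75th percentile scaling and -0.56, called, without replicate 5. MRPS16 (bS16), a disease gene, had -0.18 (SE 0.165, adjusted p = 0.408). The sign for MRPS16 turned with 75th percentile scaling (0.50), quantile normalization (0.07) and no normalization (0.08).

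The mitochondria-specific proteins of the small subunit were the class with the widest range. Of 10 members 2 rose and 2 fell, 20% each, beside 17% and 18.1% of all genes, and the median was 0.34. MRPS25 rose from 6.49, 6.94, 7.23, 7.12 and 7.38 to 8.09, 8.03, 7.99, 8.26 and 7.42, with no overlap (log2 fold change 0.93, SE 0.209, adjusted p = 0.0156). MRPS22, in which mutations cause a neonatal mitochondrial disease, rose from 11.07, 11.10, 11.19, 11.13 and 11.36 to 12.25, 12.26, 12.22, 12.32 and 11.25 (0.89, SE 0.209, adjusted p = 0.0166). Its replicates 1 to 4 lay close together and above every scrambled array, with replicate 5 in the scrambled range.

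MRPS34, also a disease gene, fell from 10.28, 10.32, 10.50, 10.37 and 10.35 to 9.45, 9.42, 9.38, 9.61 and 10.43 (-0.71, SE 0.201, adjusted p = 0.0265), or -0.31 and not called with 75th percentile scaling. The largest fall of any member was that of MRPS27, a pentatricopeptide repeat protein of the small subunit. It was tightly grouped on the scrambled arrays at 9.81, 9.65, 9.74, 9.59 and 9.62, whereas the miR-1225-3p arrays gave 7.98, 4.41, 3.19, 2.49 and 9.71. Replicate 1 lay between the groups, replicates 2 to 4 far below and replicate 5 within the scrambled range, and only 2 of the 5 were well above background. MRPS27 thus passed the filter on dim probes only through the scrambled group, where it was high. The mean log2 fold change was -4.12 (SE 1.24, adjusted p = 0.0311), with an SD of 3.14 among the miR-1225-3p arrays and 0.0895 among the scrambled arrays. Without replicate 5 it was -5.16, and the call held under 12 of 25 settings. MRPS27 has 1 probe on the array, in a single spot, so no other probe bears on this value.

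**Figure D3:**
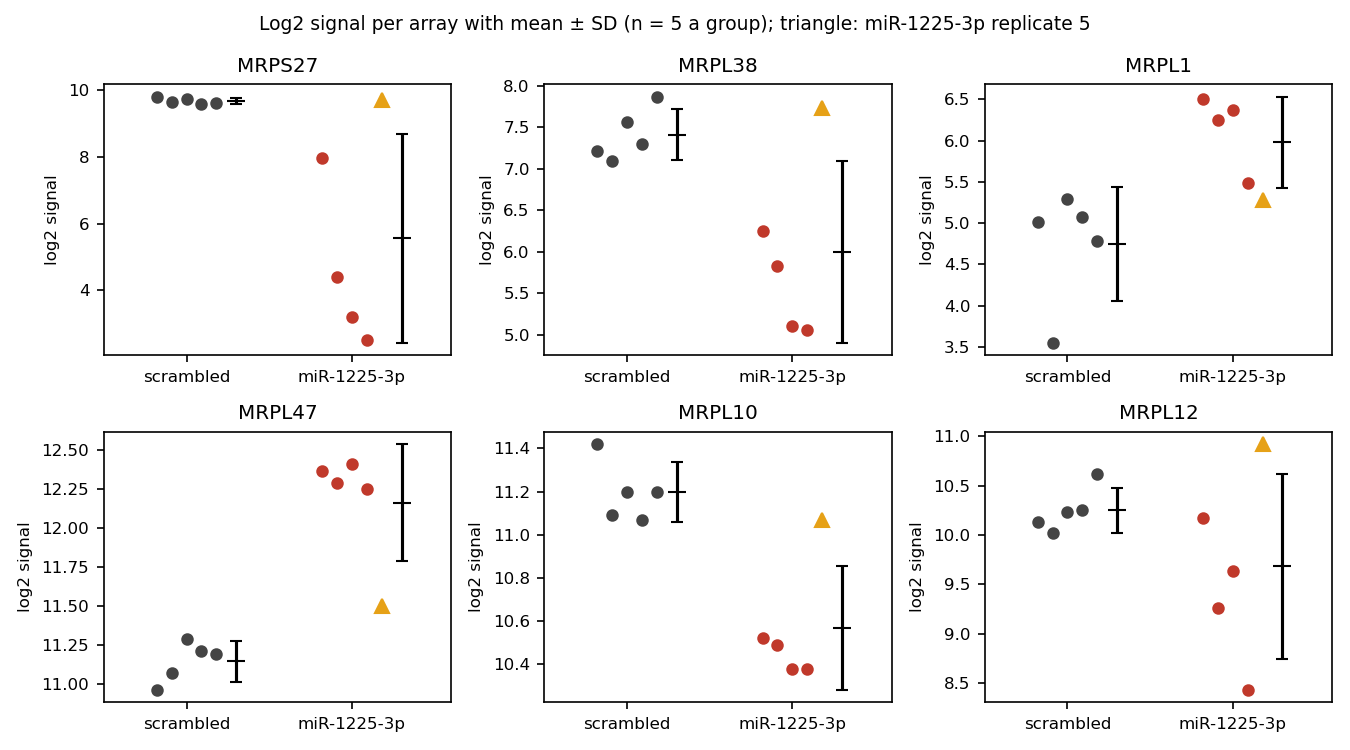
Log2 signal (y axis) of 6 members on each array, scrambled (grey) and miR-1225-3p (red), with replicate 5 of miR-1225-3p as a triangle and the mean ± SD (n = 5) beside each group. For MRPS27 the miR-1225-3p arrays run from 2.49 to 9.71 while the scrambled arrays stay between 9.59 and 9.81, and for MRPL47 and MRPL10 the groups do not overlap. The y axes differ between panels and do not start at 0.

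The 3 MRPS18 paralogs, copies of 1 bacterial protein that occupy separate sites, had log2 fold changes of 0.05 (MRPS18A, SE 0.143), 0.52 (MRPS18B, SE 0.214) and 0.35 (MRPS18C, SE 0.179). The classes above follow the unified nomenclature, by which only MRPS18C was counted as bacterial-type. MRPS18A and MRPS18B were counted as mitochondria-specific. None was called (adjusted p = 0.775, 0.0777 and 0.137). MRPS18B and MRPS18C were called higher without replicate 5 (0.68 and 0.45) and with 75th percentile scaling (1.07 and 0.86). On the miR-1225-3p arrays MRPS18B measured 12.52, 12.92, 12.88, 13.40 and 12.13, and on the scrambled arrays 12.17, 12.26, 12.24, 12.40 and 12.18. The difference between paralogs was not tested.

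Where a member had more than 1 kept probe, the probes did not always move together. Of 10 such members, 5 had probes of opposite sign and 5 of the same sign. MRPL45 rose by 0.80 on the brightest probe and had -0.21 (adjusted p = 0.361 over all kept probes) on the other. MRPS5 rose by 0.52 on the brightest and had -0.58 (adjusted p = 0.116) on the other. These calls therefore hold for a probe, not for every transcript of the gene.

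MRPS18B had 0.52 on the brightest probe, while the other fell by 1.6 (adjusted p = 0.0315, limma over all kept probes) and was dim, clearly above background on 3 of the 5 arrays with miR-1225-3p. MRPL19 (bL19) went the other way: the brightest probe, with 10 spots, had -0.68 (adjusted p = 0.205) and the other rose by 1.04 (adjusted p = 0.0465). On its brightest probe the scrambled arrays lay between 10.11 and 10.20 and the miR-1225-3p arrays at 10.78, 9.58, 8.67, 8.26 and 10.07. The second probe gave 6.24, 6.52, 6.50, 6.40 and 6.27 on scrambled arrays and 7.07, 7.97, 7.57, 8.38 and 6.14 on miR-1225-3p arrays. Replicates 2 to 4 thus moved apart in opposite directions on the 2 probes, and replicate 5 stayed with the scrambled arrays on both.

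MRPL37 had -0.14 on the brightest probe and fell by 0.95 (adjusted p = 0.0355) on the other. MRPL32 and MRPL52 had 0.30 and 0.19 on the brightest probe, not called, and rose by 0.53 (adjusted p = 0.0228) and 0.63 (adjusted p = 0.0193) on the other. For the 8 probes spotted 10 times, the SD between spots of an array had a median of 0.0482 and a highest value of 0.147 log2 units; this covers spot noise only.

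**Figure D4:**
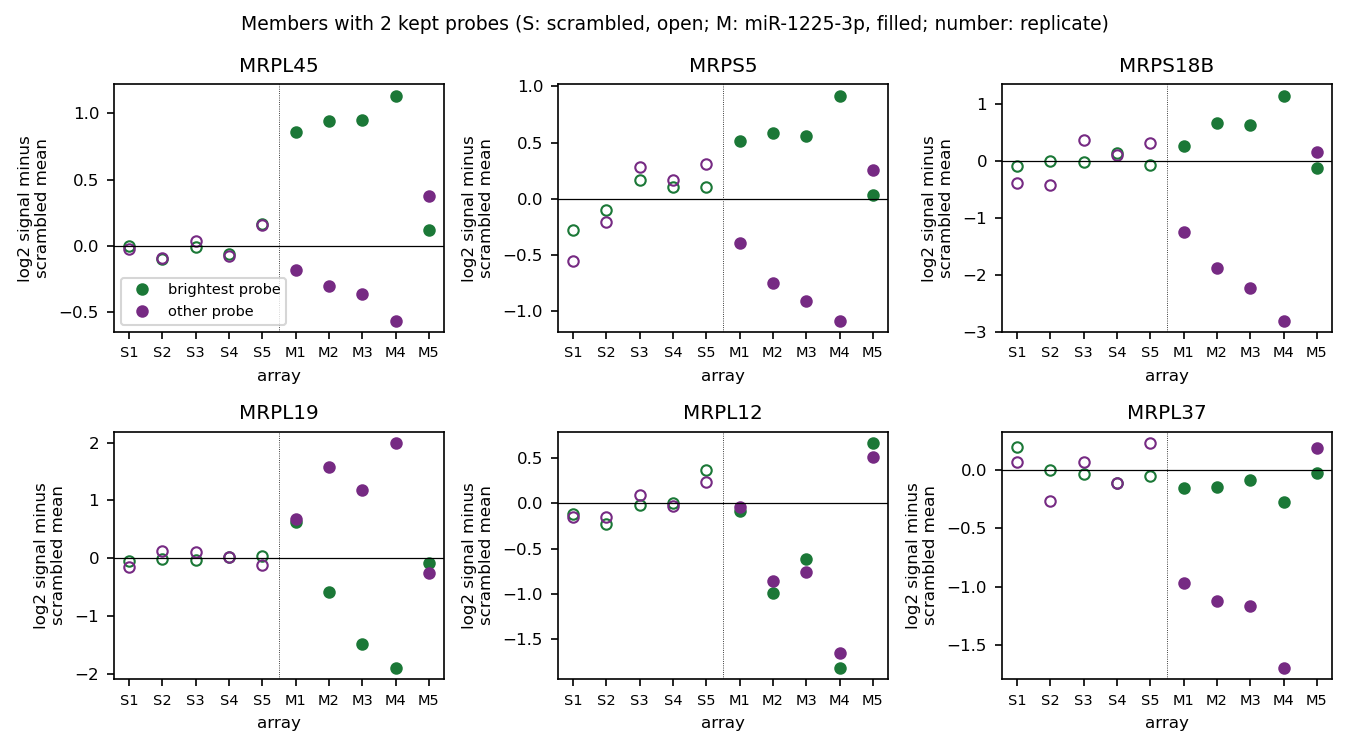
Log2 signal minus the probe's scrambled mean (y axis) on each array (x axis, S1 to S5 scrambled and open, M1 to M5 miR-1225-3p and filled) for 6 members with 2 kept probes, the brightest in green and the other in purple. The probes of MRPL45, MRPS5, MRPS18B and MRPL19 part in opposite directions on the miR-1225-3p arrays, while those of MRPL12 run together (-0.56 for both).

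The start regions of the members were read for binding motifs of factors known to act on nuclear genes of mitochondria. RefSeq promoter sequences (GRCh38.p14, 250 bases before to 50 after the start) were at hand for 68 of the 76 members. They were missing for MRPL2, MRPL10, MRPL13, MRPL15, MRPL21, MRPL23, MRPL35 and MRPS28. In all, 15843 protein-coding genes had such a sequence. These were counted whether or not they were detected on the arrays, unlike the members, which all were. On either strand, the ETS motif CCGGAAG, bound among others by GABP (also called NRF2), was in 44.1% of member promoters and 16.5% of all. The YY1 motif AAGATGGC was in 29.4% against 4.66%, the NRF1 motif (GCGCA and GCGC with any base between them) in 13.2% against 9.67%, and the SP1 motif GGGCGG in 61.8% against 64.3%.

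By call, the ETS motif was in 5 of 17 members that rose, 2 of 7 that fell and 23 of 44 not called, and the YY1 motif in 4, 4 and 12. A match is a string of letters and not a site of binding. Of the factors, YY1 fell (log2 fold change -0.64, SE 0.222, adjusted p = 0.0462) and GABPB1, a subunit of GABP, rose (0.79, SE 0.262, adjusted p = 0.0408). GABPA had -0.46 (SE 0.310, adjusted p = 0.255) and NRF1, dim, -0.79 (SE 0.346, adjusted p = 0.0928). Some matches of members named above are shown with 10 bases on either side, the motif or its reverse complement in capitals, as examples from genes that rose (MRPL47, MRPL3, MRPS22, MRPL45, MRPS9) and fell (MRPL34, MRPS34).
MRPL47, ETS, chr3:179604661-179604687, minus strand: gcttgagacgCCGGAAGtgacgctatc
MRPL47, YY1, chr3:179604713-179604740, minus strand: gcaggatgtgGCCATCTTaagtgagggc
MRPL3, ETS, chr3:131502987-131503013, minus strand: gtaaaacgcaCCGGAAGtgggtccggc
MRPS22, ETS, chr3:139343897-139343923, plus strand: ctataagggcCCGGAAGacttccggcc
MRPL45, NRF1, chr17:38296969-38296998, plus strand: ttgtctccctGCGCACGCGCggccgtactc
MRPS9, NRF1, chr2:105038019-105038048, plus strand: cgcgccattaGCGCCTGCGCcgtctctagg
MRPL34, NRF1, chr19:17305727-17305756, plus strand: cgcctctgttGCGCAGGCGCagaactacaa
MRPS34, ETS, chr16:1773189-1773215, minus strand: ctcttcctcgCTTCCGGccgcgaccga
In MRPS22 the printed ETS match is followed, after 1 base, by its own reverse complement, so that the gene holds the motif on both strands within 1 short stretch. Among these examples, NRF1 and ETS matches are shown for genes of both directions, while the YY1 match is from a gene that rose. The YY1 motif was in 4 of 7 members that fell and 4 of 17 that rose. Whether a motif goes with the direction of change was not tested.

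Genes that work beside the mitoribosome were counted on lists chosen by function. For comparison, 17% of all genes were called higher and 18.1% lower. Of 5 mitoribosomal proteins under other names, DAP3 (a GTP-binding small subunit protein, log2 fold change 0.61, SE 0.134, adjusted p = 0.0153) and CHCHD1 (0.55, SE 0.189, adjusted p = 0.0470) rose and none fell, with a median of 0.01. Of 15 mitochondrial translation factors 6 rose (40%) and 1 fell (6.67%), with a median of 0.39. The largest rise was that of the initiation factor MTIF2 (0.71, SE 0.184, adjusted p = 0.0208), and the elongation factor TUFM, which brings aminoacyl-tRNA to the ribosome, fell (-0.83, SE 0.274, adjusted p = 0.0401). The other translation factors that rose were TSFM, GFM1, GFM2, MTRF1L and MTFMT, between 0.44 and 0.68.

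Of 20 assembly factors 2 rose and 4 fell (10% and 20%, beside 17% and 18.1% of all genes), with a median of 0.25. The rRNA methyltransferase MRM2 had the largest fall (-2, SE 0.502, adjusted p = 0.0190) but cleared background on only 3 scrambled arrays and 1 array with miR-1225-3p. MRM2 thus passed the filter on dim probes only through the group where it was high. The GTPase MTG1 had the largest rise (1.39, SE 0.391, adjusted p = 0.0261), well above background on 3 scrambled arrays. Of 10 genes of mitochondrial transcription and DNA maintenance 4 rose (40%) and 1 fell (10%), with a median of 0.17. The largest called rise was the nuclease MGME1 (0.97, SE 0.279, adjusted p = 0.0273) and the only called fall the RNA polymerase POLRMT (-0.48, SE 0.159, adjusted p = 0.0405). Of 16 mitochondrial aminoacyl-tRNA synthetases 3 rose (18.8%) and 1 fell (6.25%). Their median was -0.08 (0.22 with 75th percentile scaling, 0.04 with quantile normalization). The called genes ran from WARS2 (0.84, SE 0.126, adjusted p = 0.0127) to TARS2 (-1.21, SE 0.197, adjusted p = 0.0136). Of 8 regulators of mitochondrial biogenesis GABPB1 rose and YY1 fell, 12.5% each. Their median was -0.28 (0.01 with 75th percentile scaling). No probe was matched to a mitochondrially encoded protein, so the products of the mitoribosome were not analysed here.

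Beside these, the 84 cytosolic ribosomal protein genes had a median of -0.19, with 1 rise (1.19%) and 5 falls (5.95%). The 78 nuclear-encoded respiratory chain genes had a median of 0.05, with 7 rises and 7 falls (8.97% each). The shares over all genes were 17% higher and 18.1% lower. For cytosolic ribosomal proteins the sign depended on the scale: the median was 0.57 with 75th percentile scaling, 0.05 with quantile normalization and 0.14 with no normalization. On those scales the mitoribosomal median was 0.65, 0.28 and 0.23 and the respiratory chain median 0.66, 0.22 and 0.24. The difference between these lists was not tested.

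**Figure D5:**
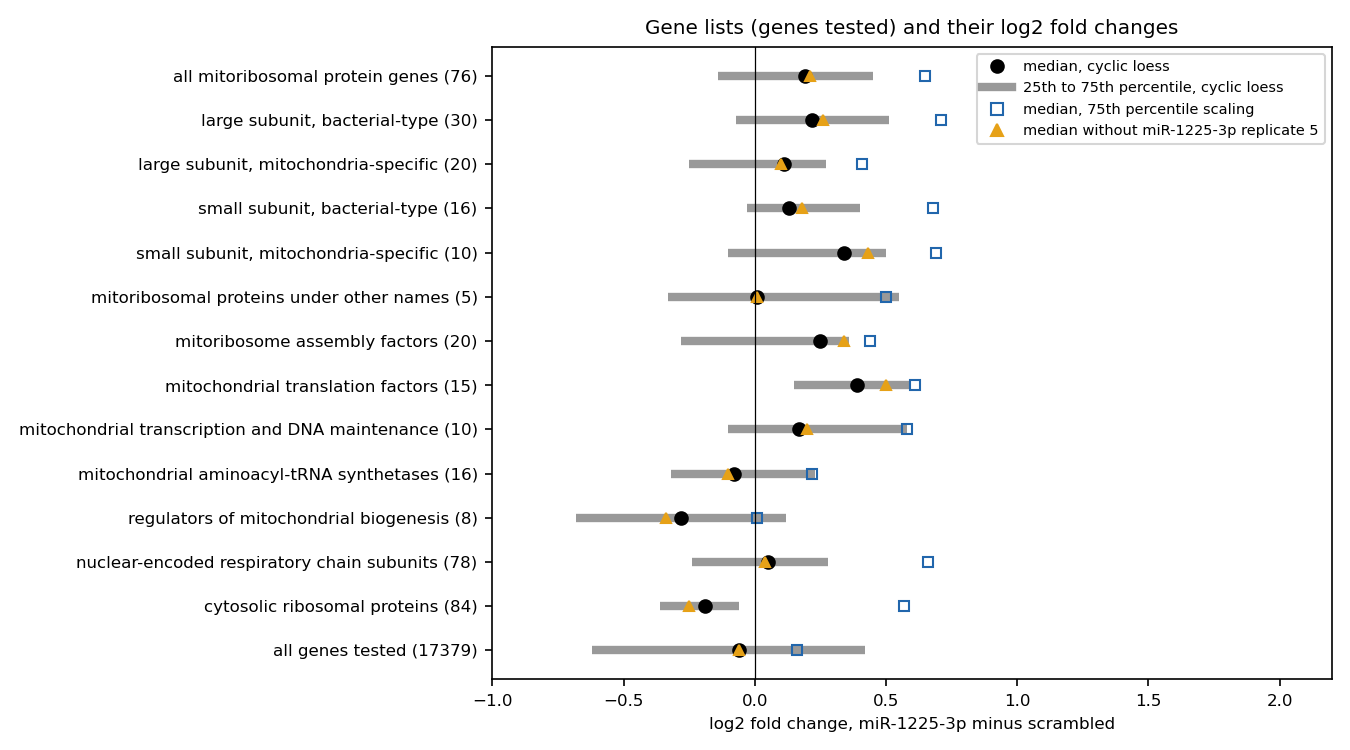
Median log2 fold change (x axis, miR-1225-3p minus scrambled) of the mitoribosomal protein genes, their structural classes, related gene lists and all genes tested (y axis, number of genes tested in brackets). Circles and bars are the median and the 25th to 75th percentile after cyclic loess, squares the median with 75th percentile scaling and triangles the median without miR-1225-3p replicate 5, and the mitoribosomal median lies at 0.19, 0.65 and 0.21 against -0.06, 0.16 and -0.06 for all genes.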

How the data were processed

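Total RNA of MEG-01 cells was copied into cDNA and from there into Cy3-labeled cRNA. The cRNA was hybridized to Agilent SurePrint G3 arrays in 1 channel, 5 arrays for miR-1225-3p and 5 for scrambled precursor. The authors deposited Feature Extraction scanner output (version 10.7.3.1 per the file headers), whose processed signal is an intensity with background already subtracted, and a separate table of normalized log2 values for 29271 probes, used here only as an alternative. Whether those log2 values were also centred on control samples or control probes was not settled by the methods; the medians of its 10 columns lay between 4.77 and 5.15. After centring each of the 88 member probes over the arrays, the values of an array correlated across probes with those computed here at r of 0.967 or more.

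Here log2 processed signals of 58717 non-control spots were normalized by cyclic loess (limma 3.58.1, R 4.3.3, fast method, 3 iterations), spots with an outlier flag were dropped, and repeat spots of a probe were replaced by their mean. A probe was kept if its signal exceeded background clearly on 3 or more arrays in at least 1 group (20648 probes), and the probe with the highest mean stood for its gene. Probes were named through RefSeq accessions (GRCh38.p14), which matched 24910 of 42405. The others kept the name given on the array, so that 11995 of the 17379 genes tested carried a symbol. Groups were compared with limma (lmFit, eBayes) with Benjamini-Hochberg adjustment over 17379 genes at 0.05, and single genes with a two-sided exact permutation test. The number of arrays limits precision. The fit was tested on simulated data, where 42 of 100 genes given a log2 change of 1 were recovered. Of 100 genes given a change of 2, 89 were recovered. A missing call therefore does not show that a gene was unchanged.

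The members and lists were chosen with earlier results of these data known. Named members are, per structural class, the 3 largest rises and falls among called genes well above background on all 10 arrays, genes fixed by role, genes whose probes disagree, and the largest rise and fall of each related list; 10 further names were added after their values were seen. Alternatives covered normalization, background correction (normexp on the median signal, offset 50, since the mean signal was not used here), filter, flags, probe choice, test, array weights, replicate number and slide as blocks, each slide by itself, and each array left out. Seed matches of the microRNA were not analysed here, and some genes on the related lists are not reported here.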

Additional observations from a re-analysis of the deposited data

Results flagged for a closer look

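For the members named or called, the highest or lowest array of a group was compared with the others by Dixon's ratio of its gap to the group's range. Of 80 groups examined, 10 had an array beyond the critical value for its size, and 9 of the 10 were miR-1225-3p replicate 5. Chance would give about 4 if the groups were independent. They are not, since all genes were read on the same arrays, so the comparison with 4 cannot gauge chance.

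In 5 genes that rose, this array was the low one, on the side of the scrambled arrays. The log2 signal of replicate 5 was 13.20 for MRPL21 (other miR-1225-3p arrays 13.59 to 13.71), 10.99 for MRPL39 (11.55 to 11.65), 11.75 for MRPL45 (12.49 to 12.76), 11.50 for MRPL47 (12.25 to 12.41) and 11.25 for MRPS22 (12.22 to 12.32). In 4 genes that fell, it was the high one. There replicate 5 measured 11.07 for MRPL10 (others 10.38 to 10.52), 13.16 for MRPL34 (11.94 to 12.14), 10.93 for MRPL49 (9.89 to 10.08) and 10.43 for MRPS34 (9.38 to 9.61). Why this array lay with the scrambled arrays was not tested.

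The remaining array was scrambled replicate 2, at 3.55 for the dim gene MRPL1 against 4.79 to 5.29 on the other scrambled arrays.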

How the results depend on the processing

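The limits are the dispersion of the miR-1225-3p arrays, the dependence of direction on the scaling, and dim probes, for which a low signal gives only a bound. The median of all 76 members was positive under every alternative run, while counts of calls moved widely.

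Of mitoribosomal protein genes called, against 27 (19 higher, 8 lower), 75th percentile scaling gave 49 (47 and 2), no normalization 1 (0 and 1), array weights 53 (37 and 16), slide 1 alone 13 (7 and 6) and slide 2 alone 0 (0 and 0), beside 41.1%, 7.28%, 69.3%, 25.9% and 0% of all genes. No filter on dim probes gave 15, of which 2 were lower, beside 9.67% of all genes called in either direction. The methods' t-test gave 5 lower and slide as a block 5 lower, beside 11.7% and 15.4% of all genes called lower. With no normalization, 7 of 76 members had an unadjusted p under 0.05 by limma, beside 4625 of 17379 genes. Leaving out 1 array gave 9 to 43 called, 9 to 31 higher and 0 to 12 lower. The share of all genes called in either direction ran from 12.3% (without miR-1225-3p replicate 2) to 55.4% (without replicate 5).

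The numbering gave no evidence of pairing, since deviations of arrays sharing a number correlated at between -0.402 and 0.072. With replicate number as a block, 0 members were called, as were 0 of all genes. In that setting 32 of 76 members and 7474 of 17379 genes had an unadjusted p under 0.05 by limma. The share of members was thus near that of all genes.

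The median of 0.19 became 0.65 with 75th percentile scaling, 0.28 with quantile normalization and 0.13 both with normexp and with the authors' values. For large subunit, bacterial-type, 0.22 became 0.71, 0.29, 0.13 and 0.15 in that order, 0.29 with no normalization, and 0.15 to 0.26 without 1 array. For large subunit, mitochondria-specific, 0.11 became 0.41, 0.25, 0.05 and 0.06, -0.01 with no normalization, 0.18 with only genes clear of background on every array, and 0.20 and 0.05 on slides 1 and 2. For small subunit, bacterial-type, 0.13 became 0.68 and 0.26 with those scalings, 0.06 with the authors' values, 0.26 with no normalization, 0.21 with array weights and 0.23 on slide 1. For small subunit, mitochondria-specific, 0.34 became 0.69 with 75th percentile scaling and 0.22 with normexp.

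The sign turned for cytosolic ribosomal proteins (0.57, 0.05 and 0.14 with 75th percentile, quantile and no normalization) and biogenesis regulators (0.01 with 75th percentile), for aminoacyl-tRNA synthetases (0.22 with 75th percentile, 0.04 with quantile, 0.06 on slide 1, 0.08 with only genes clear of background on every array), and for mitoribosomal proteins under other names (-0.06 with normexp, -0.07 with the authors' values, -0.03 on slide 1, and down to -0.04 without 1 array). Among members named in the text, 75th percentile scaling turned MRPL23 (0.36), MRPL37 (0.38), MRPL41 (0.33) and MRPS16 (0.50). Quantile normalization turned MRPL23 (0.0066) and MRPS16 (0.07), and no normalization MRPS16 (0.08) and MRPS18A (-0.12). The mean of the kept probes turned MRPL19 (0.18), MRPS18B (-0.54) and MRPS5 (-0.03), slide 1 alone MRPL19 (0.03), the authors' values MRPL11 (-0.01), and leaving out miR-1225-3p replicate 1 MRPS18A (-0.03). Of these, only MRPS5 was called. Causes were not tested, other than probe choice for MRPL19, MRPS18B and MRPS5, whose probes differ in sign.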

Other observations

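Nuclear-encoded respiratory chain genes moved in both directions, 8.97% of them each way, beside 17% of all genes called higher and 18.1% lower. Of 78 nuclear-encoded genes, 7 rose, between 0.44 and 0.59 on the log2 scale: the ATP synthase genes ATP5PB and ATP5PD and the complex I genes NDUFB5, NDUFB6, NDUFB8, NDUFS4 and NDUFS5. Another 7 fell, between -1.61 and -0.48, among them the complex I gene NDUFB11, the complex III genes CYC1 and UQCRC1, the complex IV genes COX4I1 and COX6B2 and the ATP synthase gene ATP5F1D. With 75th percentile scaling 49 rose and 1 fell, beside 26.3% and 14.9% of all genes.

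Of 84 cytosolic ribosomal protein genes, RPL26L1, a paralog of RPL26, was the only one to rise (0.58, SE 0.119, adjusted p = 0.0139). RPL15, RPL7L1, RPLP0 and RPS16 were among the 5 that fell, these 4 by 0.45 to 0.8. The 1 rise and 5 falls stood beside 17% and 18.1% of all genes. With 75th percentile scaling, however, 32 of the genes rose and 0 fell, beside 26.3% and 14.9% of all genes.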
